A study of Mus musculus with 11 samples.

Results

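Genes of hepatic bile acid synthesis and transport were examined in the livers of mice that expressed a microRNA decoy. The 10 genes were chosen by symbol from the table of read counts per gene, and all of them are among its 13669 genes. They are *Cyp7a1*, *Cyp8b1*, *Cyp27a1* and *Cyp7b1* for synthesis, *Baat* for conjugation, *Slc10a1*, *Abcb11* and *Abcb4* for transport, and the nuclear receptor genes *Nr1h4* and *Nr0b2*. All 10 passed the filter on low counts (over 10 reads in 5 livers or more) and were tested together with the other genes, 13334 in all. The 11 animals were wild-type mice, per the study's methods male C57BL/6J on regular chow. In 6 of them (AAV-TuD) a recombinant adeno-associated virus of serotype AAV8 expressed the tough decoy, an RNA hairpin that binds *miR-379* and *miR-541*, and in 5 (AAV-NC) the same kind of virus expressed a negative control sequence. Both groups therefore carried a virus, and in both the insert was driven by LP1, an artificial promoter made from human apolipoprotein and alpha-1-antitrypsin elements that is active in liver. The mice were obtained young and were killed after a short fast, weeks to months after the virus. The age and the interval are not given for single animals. The labels give 1 library per sample and do not say how the animals were caged or in which batches they were handled.

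Hepatocytes make bile acids from cholesterol. In the classical pathway CYP7A1 acts first and sets the rate, and CYP8B1 adds the hydroxyl group that turns the product towards cholic acid. In the alternative pathway CYP27A1 oxidises the side chain and CYP7B1 then hydroxylates the ring. BAAT joins the bile acid to taurine or glycine, ABCB11 pumps the conjugate into the canaliculus, ABCB4 brings phosphatidylcholine to the canalicular membrane, and SLC10A1 (NTCP) takes bile acids back up from portal blood. The bile acid receptor FXR (*Nr1h4*) induces *Nr0b2*, which encodes the repressor SHP, and the canalicular pumps, and SHP and intestinal fibroblast growth factor signaling through FGFR4 and its coreceptor beta-Klotho lower *Cyp7a1* transcription.

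The sequences that the decoy is directed at are shown because it was built to bind them. They are the RefSeq mature sequences of the mouse miRNAs in GRCm38.p6, both on the plus strand of chromosome 12, at chr12:109709065-109709085 for *miR-379-5p* and chr12:109742422-109742446 for *miR-541-5p*. Capitals mark the seed, bases 2 to 8.
mmu-miR-379-5p: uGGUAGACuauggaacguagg
mmu-miR-541-5p: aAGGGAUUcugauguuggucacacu
The seeds differ, and the 7 bases complementary to each were searched for in 3′ UTRs of GENCODE M21, taking the longest one per gene. A complement of the *miR-379-5p* seed was in none of the 10 genes, and in 5.72% of the 10935 tested genes with an annotated 3′ UTR. The *miR-541-5p* seed had a complement in *Nr0b2* only, at bases 231 to 237 of its 300-base 3′ UTR, and in 9.51% of the 10935 genes. For both seeds the count among the 10 genes was near the share of all genes. The site is given here with its neighbouring bases, with the seed match in capitals.
Nr0b2 3′ UTR: tttcaagccagAATCCCTcctgactttgt
The UTR lengths searched were between 51 bases for *Abcb4* and 2600 for *Cyp7a1*. A match of this kind is a description of the sequence and does not show that the miRNA binds there. The study reports that in liver the decoy also lowered the host transcripts *lncMGC* and *Mirg* and other miRNAs of the same cluster. The seeds of those other miRNAs were not searched for here.

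Promoter windows from 250 bases before to 50 after the RefSeq start site were at hand for 7 of the 10 genes, and not for *Cyp7a1*, *Cyp7b1* and *Baat*. They were searched on both strands for 4 motifs. The first was AGGTCA, the hexamer of many nuclear receptors, and the second an inverted repeat as FXR prefers, that is AGNNCA and its inverted complement with any 1 base between. The others were CAAGGTCA, an extended hexamer that LRH-1 binds, and the HNF1 palindrome, GTTAAT and its inverted complement with any 1 base between. AGGTCA lies within CAAGGTCA and can lie within the inverted repeat. The inverted repeat was found in *Abcb11* and in no other of the 7, at bases -63 to -51 from the start, against 0.731% of all 32851 windows. Its surroundings, at chr2:69342659-69342687 on the minus strand of GRCm38.p6, are shown because *Abcb11* is a textbook FXR target, with the repeat in capitals.
Abcb11 promoter: tggactttAGGCCATTGACCTataagcaa
The hexamer AGGTCA was in the windows of *Abcb11* (within the same repeat), *Nr1h4* and *Slc10a1*, and in 16.3% of all windows. The hexamers of *Nr1h4* (within chr10:89506859-89506880) and *Slc10a1* (within chr12:80968153-80968174) lie inside the gene spans given below. The RefSeq starts of these windows are therefore not the outermost annotated ones. *Slc10a1* had 2 windows, and each other gene searched had 1. CAAGGTCA (1.56% of windows) and the HNF1 palindrome (0.00913%) were in none of the 7.

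The measurements are counts of reads from the 3′ end of polyadenylated transcripts. The authors deposited these without normalization, and a liver had between 8148531 and 12043959 of them. Levels are given as CPM, the usual count relative to library size, after scaling of the size by TMM in edgeR (factors 0.667 to 1.24). The 40 major urinary protein (*Mup*) genes and pseudogenes, which are abundant in male liver, took an uneven share of the reads and so entered the scaling. The share was 40.2% in AAV-NC liver 7, 32.3% in AAV-TuD liver 3 and 29.6% in AAV-TuD liver 5, and between 8.58% and 19.5% in the other livers, and these 3 libraries stood apart. Livers are called by the replicate number of their label. The hepatocyte markers *Alb*, *Apoa1* and *Ttr* were the most abundant of their list. The hepatocyte marker list summed to at least 34489 CPM in each liver, and no marker list of another cell type to more than 399 CPM. The tissue label was borne out by this. The decoy RNA and the 2 miRNAs were not analysed here, so the labels were not checked against the target. In bulk liver RNA, fewer cells of a type and less RNA per cell cannot be told apart.

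By edgeR's quasi-likelihood test with an adjusted p below 0.05, 11.6% of the 13334 genes had different levels in the groups (7.24% were higher and 4.33% lower with AAV-TuD). Of the 10 bile acid genes, 2 were higher (*Nr0b2* and *Abcb4*) and 2 lower (*Cyp27a1* and *Slc10a1*). The remaining 6 were not past the threshold. An unadjusted p value under 0.05 was found for 8 of the 10, and for 26.3% of all genes. The values of the groups did not overlap for 3 of the 10, 2 of them higher and 1 lower, and for 7.39% of all genes (4.11% higher and 3.28% lower). The median log2 fold change of the 10 genes was -0.31, and -0.00 for all genes. Among them 7 had a negative and 3 a positive fitted value.

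**Figure D1:**
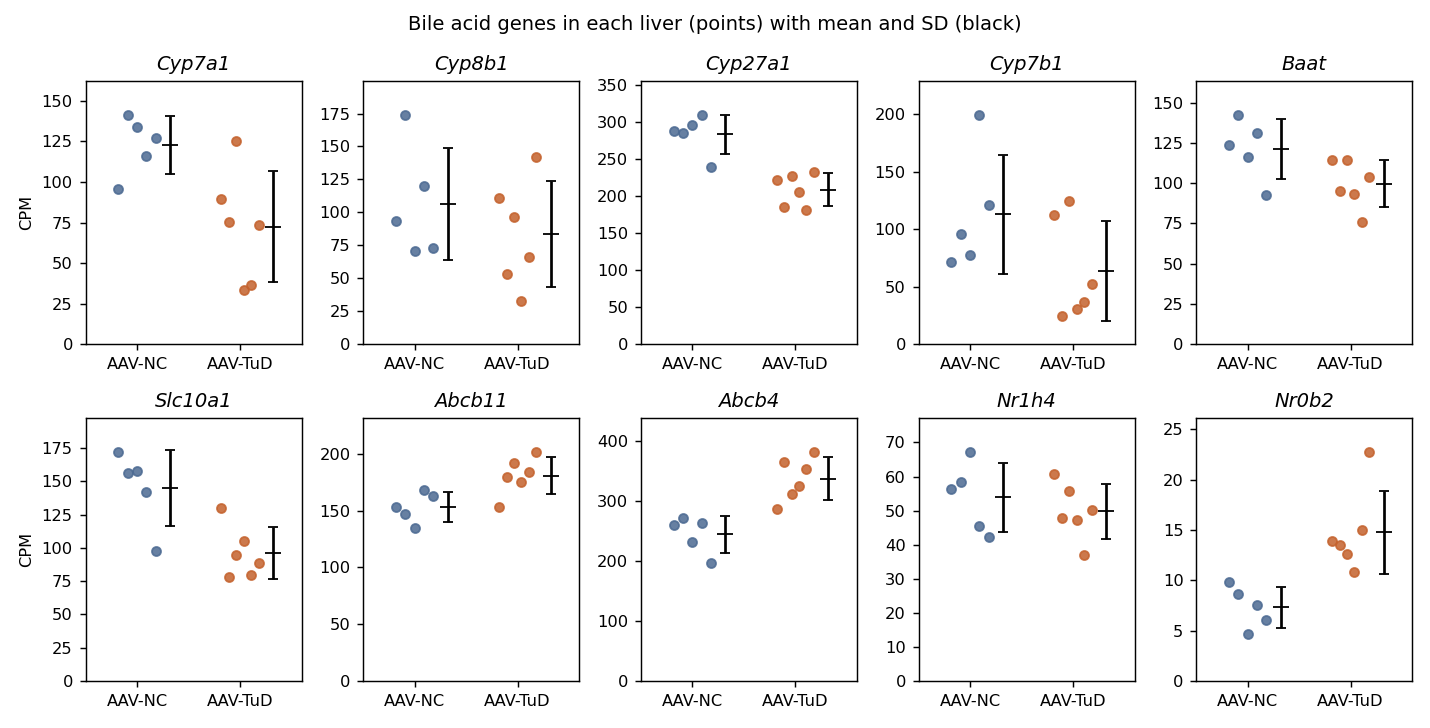
CPM of each bile acid gene in each liver (y axis from 0, points in the order of replicate number), with the mean and SD of the 5 AAV-NC (blue) and 6 AAV-TuD (orange) livers in black. The groups do not overlap for *Cyp27a1*, *Abcb4* and *Nr0b2*, and 5 of 6 AAV-TuD livers lie below all AAV-NC livers for *Cyp7a1*.

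*Cyp7a1* (ENSMUSG00000028240, minus strand of chromosome 4 of GRCm38 from 6265612 to 6275633) had 95.6, 141, 134, 116 and 127 CPM in the AAV-NC livers 1, 2, 6, 7 and 8. In the AAV-TuD livers the lowest value was 33.6, the median 74.7 and the highest 125 CPM. Of the AAV-TuD livers, 5 of 6 lay below the whole AAV-NC range, and liver 5 was inside it. The lowest values were those of livers 9 and 10, with 33.6 and 36.6 CPM. Means were 123 ± 17.7 (SD, n = 5) and 72.4 ± 34.3 CPM (SD, n = 6), so that the coefficient of variation was 14.4% with AAV-NC and 47.4% with AAV-TuD. The fitted log2 fold change of -0.77 (standard error 0.26, 95% interval -1.32 to -0.21) was not past the threshold after adjustment (edgeR adjusted p = 0.0684). Without AAV-TuD liver 5 it was past it (-0.99, edgeR adjusted p = 0.0152), and so it was in limma-voom with quality weights (-0.90, adjusted p = 0.0341). DESeq2 gave an adjusted p of 0.110, and without AAV-NC liver 2 the edgeR adjusted p was 0.129.

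*Cyp8b1* (ENSMUSG00000050445, minus strand of chromosome 9 from 121914356 to 121916305) varied widely in both groups. The AAV-NC livers had 93.1, 174, 70.7, 120.1 and 73.1 CPM in the same order, and the AAV-TuD livers had between 33.1 and 142 with a median of 81.6. The groups overlapped over most of their range, and 3 of 6 AAV-TuD livers were below all AAV-NC livers. The log2 fold change was -0.34 (standard error 0.31, edgeR adjusted p = 0.535), and its 95% interval reached from -1.0 to 0.32. Single livers moved the value, to -0.089 without AAV-NC 2, -0.17 without AAV-TuD 9 and -0.56 without AAV-TuD 11.

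*Cyp27a1* (ENSMUSG00000026170, plus strand of chromosome 1 from 74713574 to 74737892), which encodes the mitochondrial enzyme of the alternative pathway, had the smallest p value of the 10 genes. Its level was 287, 285, 295, 309 and 239 CPM in the AAV-NC livers 1, 2, 6, 7 and 8, and 181 (lowest), 213 (median) and 232 (highest) in the AAV-TuD livers. Each AAV-TuD liver lay below each AAV-NC liver, with the closest approach between AAV-NC 8 and AAV-TuD 11. It fell by 0.44 on the log2 scale (standard error 0.09, edgeR adjusted p = 0.00488), to 0.737 of the AAV-NC level, and was not past the threshold when scaled by library size alone (-0.21, edgeR adjusted p = 0.406). This was rank 66 by p value among the lower genes.

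*Cyp7b1* (ENSMUSG00000039519, minus strand of chromosome 3 from 18071950 to 18243338), the next enzyme of the alternative pathway and higher in male than in female mouse liver, had 71.5, 95.7, 77.3, 199 and 121 CPM in the AAV-NC livers. The AAV-TuD values ran from 24.1 to 124 with a median of 44.8 CPM. They fell into 4 livers between 24.1 and 52.7, below all AAV-NC livers, and livers 3 and 5 at 113 and 124. The log2 fold change was -0.84 with a standard error of 0.39 (95% interval -1.67 to -0.0048, edgeR adjusted p = 0.187), and it was -0.53 without AAV-NC liver 7 (edgeR adjusted p = 0.437). The highest values of each group, that of AAV-NC 7 and those of AAV-TuD 3 and 5, came from the 3 livers with the highest share of *Mup* reads.

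*Baat* (ENSMUSG00000039653, minus strand of chromosome 4 from 49489422 to 49506557), the conjugating enzyme, had 124, 142, 116, 131 and 92.5 CPM with AAV-NC and between 76.1 and 115 with AAV-TuD (median 99.7). Only AAV-TuD liver 10 was below the AAV-NC range. The log2 fold change of -0.28 (standard error 0.12) was not past the threshold (edgeR adjusted p = 0.130), and it was past it without AAV-NC liver 8 (-0.37, edgeR adjusted p = 0.0423).

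*Slc10a1* (ENSMUSG00000021135, minus strand of chromosome 12 from 80953183 to 80968705), the basolateral sodium-dependent uptake carrier, fell with AAV-TuD. It had 172, 156, 158, 142 and 97.5 CPM in the AAV-NC livers 1, 2, 6, 7 and 8. The AAV-TuD livers ranged from 78.1 to 130.2 CPM, with a median of 91.8. The groups overlapped only through AAV-NC liver 8, the lowest control, and 4 of 6 AAV-TuD livers lay below it. The log2 fold change was -0.59 (standard error 0.15, edgeR adjusted p = 0.0156), which is 0.663 of the AAV-NC level. Scaled by library size alone it was -0.38 and not past the threshold (edgeR adjusted p = 0.143).

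Of the canalicular transporters, *Abcb4* rose and *Abcb11* was not past the threshold. *Abcb4* (ENSMUSG00000042476, plus strand of chromosome 5 from 8893717 to 8959231), the phosphatidylcholine floppase, had 260.1, 272, 232, 263 and 197 CPM in the AAV-NC livers, and 286 (lowest), 339 (median) and 382 (highest) in the AAV-TuD livers. Each AAV-TuD liver was above each AAV-NC liver. It rose by 0.46 on the log2 scale (standard error 0.10, edgeR adjusted p = 0.00693), or 1.38-fold. The last 500 bases of its longest transcript match a transcript of *Abcb1b* at 98.3% over 177 bases, and *Abcb1b* was not analysed here, so reads that could belong to either cannot be told apart.

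*Abcb11* (ENSMUSG00000027048, minus strand of chromosome 2 from 69238282 to 69342616), the bile salt export pump, whose promoter element is printed above, had 153, 147, 135, 168 and 163 CPM with AAV-NC. With AAV-TuD it had between 153 and 202, with a median of 182. In 5 of 6 AAV-TuD livers the value was above the AAV-NC range, and liver 3 was inside it. The log2 fold change of 0.24 (standard error 0.08, 95% interval 0.07 to 0.41) was close to the threshold but not past it (edgeR adjusted p = 0.0670), and DESeq2 gave an adjusted p of 0.0495 for 0.23. The antisense gene *Gm13613* lies within *Abcb11* on the other strand, at a mean of 1.45 CPM in AAV-NC and 1.66 CPM in AAV-TuD livers.

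*Nr0b2* (ENSMUSG00000037583, plus strand of chromosome 4 from 133553376 to 133556536), which encodes SHP, had the fewest reads and the largest fitted fold change of the 10 genes. A 3′ library gives reads from 1 end of a transcript, so that levels of different genes do not scale with transcript length. It had 82, 69, 42, 60 and 62 reads in the AAV-NC livers, or 9.79, 8.69, 4.65, 7.51 and 6.03 CPM. The AAV-TuD livers had between 119 and 266 reads, and 10.8 (lowest), 13.7 (median) and 22.7 CPM (highest, liver 11). The groups did not overlap, with AAV-NC 1 and AAV-TuD 9 nearest to each other. It rose 2.03-fold, a log2 fold change of 1.02 (standard error 0.20, edgeR adjusted p = 0.00546). By p value it was rank 275 among the higher genes, and *Abcb4* rank 323.

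*Nr1h4* (ENSMUSG00000047638, minus strand of chromosome 10 from 89454234 to 89533585), which encodes FXR, had 56.5, 58.3, 67.2, 45.4 and 42.3 CPM with AAV-NC, and between 37.0 and 60.8 with AAV-TuD (median 49.1). The groups overlapped almost completely. The log2 fold change was -0.12 (95% interval -0.39 to 0.16, edgeR adjusted p = 0.629), so a change of its transcript of more than 0.39 in either direction lies outside the interval.

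Ratios of the reads of a pair of genes within a liver do not depend on the scaling, and are given as values without a test. The log2 ratio of *Abcb11* (export) to *Slc10a1* (uptake) was 0.10 ± 0.40 (SD, n = 5) in AAV-NC livers and 0.93 ± 0.39 (SD, n = 6) in AAV-TuD livers, and 4 of 6 AAV-TuD livers were above all AAV-NC livers. *Cyp8b1* to *Cyp7a1* was -0.28 ± 0.54 (SD, n = 5) and 0.20 ± 0.61 (SD, n = 6), with 3 of 6 AAV-TuD livers above the AAV-NC range. The ratio of *Cyp7a1* to *Cyp27a1*, the initiating enzymes of the pathways, was -1.21 ± 0.28 (SD, n = 5) and -1.67 ± 0.67 (SD, n = 6), with 3 AAV-TuD livers below and 1 above the AAV-NC range. The difference of -0.46 was -0.27 without AAV-TuD 9. *Cyp7b1* to *Cyp27a1* was -1.43 ± 0.60 (SD, n = 5) and -1.99 ± 0.88 (SD, n = 6), and 4 of 6 AAV-TuD livers were below all AAV-NC livers. Here the difference was -0.57, and -0.37 without AAV-NC 7.

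Other genes of bile acid handling were taken from lists written by hand, of which 52 of 61 genes were tested. Among these 52, 4 were higher and 8 lower with AAV-TuD, with a median log2 fold change of -0.07. Over all genes tested 7.24% were higher and 4.33% lower, so the count of higher genes was near the share of all genes. These shares are the background for the list counts of the reported fit that follow. Scaled by library size alone, 7 of the 52 were higher and 2 lower. With that scaling 1386 of all 13334 genes were higher and 71 lower. Of the 14 tested genes for ring modification, side-chain shortening and related acyltransferases, 1 was higher and none lower. This was *Acnat2*, a relative of *Baat* in the peroxisome, with 7.13 ± 3.62 CPM (SD, n = 5) and 17.1 ± 2.78 (SD, n = 6), a log2 fold change of 1.28 and an edgeR adjusted p of 0.00564. *Cyp39a1*, an oxysterol hydroxylase, had a log2 fold change of -0.29 and groups that did not overlap, at an edgeR adjusted p of 0.0723. The reductase gene *Akr1d1* had -0.28 (edgeR adjusted p = 0.139).

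Of 5 other uptake carriers and associated genes, 2 were lower. *Slco1a1*, an organic anion carrier that is higher in males, had 325 ± 55.6 CPM (SD, n = 5) and 149.6 ± 65.6 (SD, n = 6), and fell by 1.12 on the log2 scale (standard error 0.24, edgeR adjusted p = 0.00737). *Slco1b2*, the hepatocyte carrier for unconjugated bile acids, fell by 0.44 (edgeR adjusted p = 0.0356), and its call was lost without any 1 of 9 of the 11 livers. *Slco1a4* had a log2 fold change of -0.38 (edgeR adjusted p = 0.189).

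Of 9 other genes for canalicular transport, 1 was higher and 1 lower. *Abcg2*, an efflux pump, rose by 0.31 (edgeR adjusted p = 0.0263), and *Tmem30a*, the partner subunit of phospholipid flippases, fell by 0.29 on the log2 scale (edgeR adjusted p = 0.0346). The call of *Abcg2* was lost without any 1 of 5 livers and that of *Tmem30a* without any 1 of 8. *Abcb1a*, a multidrug pump gene, had 4.59 ± 2.15 CPM (SD, n = 5) and 8.59 ± 3.48 (SD, n = 6), at an edgeR adjusted p of 0.0823. None of the 3 tested genes for export to the blood was past the threshold. *Slc51b*, a subunit of the basolateral carrier and an FXR target, had 1.91 and 3.23 CPM (log2 fold change 0.74, edgeR adjusted p = 0.105), *Abcc4* 0.61 and *Abcc3* -0.14 on the log2 scale.

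Among 15 tested regulators, 1 was higher and 3 lower. *Klb*, which encodes beta-Klotho, was at 5.70 ± 0.944 CPM (SD, n = 6) with AAV-TuD and fell by 0.80 on the log2 scale (standard error 0.17, edgeR adjusted p = 0.00704). Its partner *Fgfr4* fell by 0.57 (edgeR adjusted p = 0.00876) with no overlap between the groups. *Hnf4a*, a hepatocyte transcription factor that acts on *Cyp7a1* and *Cyp8b1*, fell by 0.38 (edgeR adjusted p = 0.0150). Scaled by library size alone, *Klb*, *Fgfr4* and *Hnf4a* were at -0.59, -0.35 and -0.15 and not past the threshold. *Nr2f2*, named after its values were seen, rose by 0.27 (edgeR adjusted p = 0.0419), a call lost without any 1 of 9 livers. Of 6 detoxification genes, *Cyp3a11* rose by 0.64 (edgeR adjusted p = 0.00409), whereas the glucuronosyltransferase genes *Ugt2b5* and *Ugt2b1* fell by 0.45 and 0.71 on the log2 scale (edgeR adjusted p = 0.00620 and 0.00958). Scaled by library size alone *Ugt2b5* was at -0.22 and not past the threshold (edgeR adjusted p = 0.395), and *Ugt2b1* was at -0.47 and past it.

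**Figure D2:**
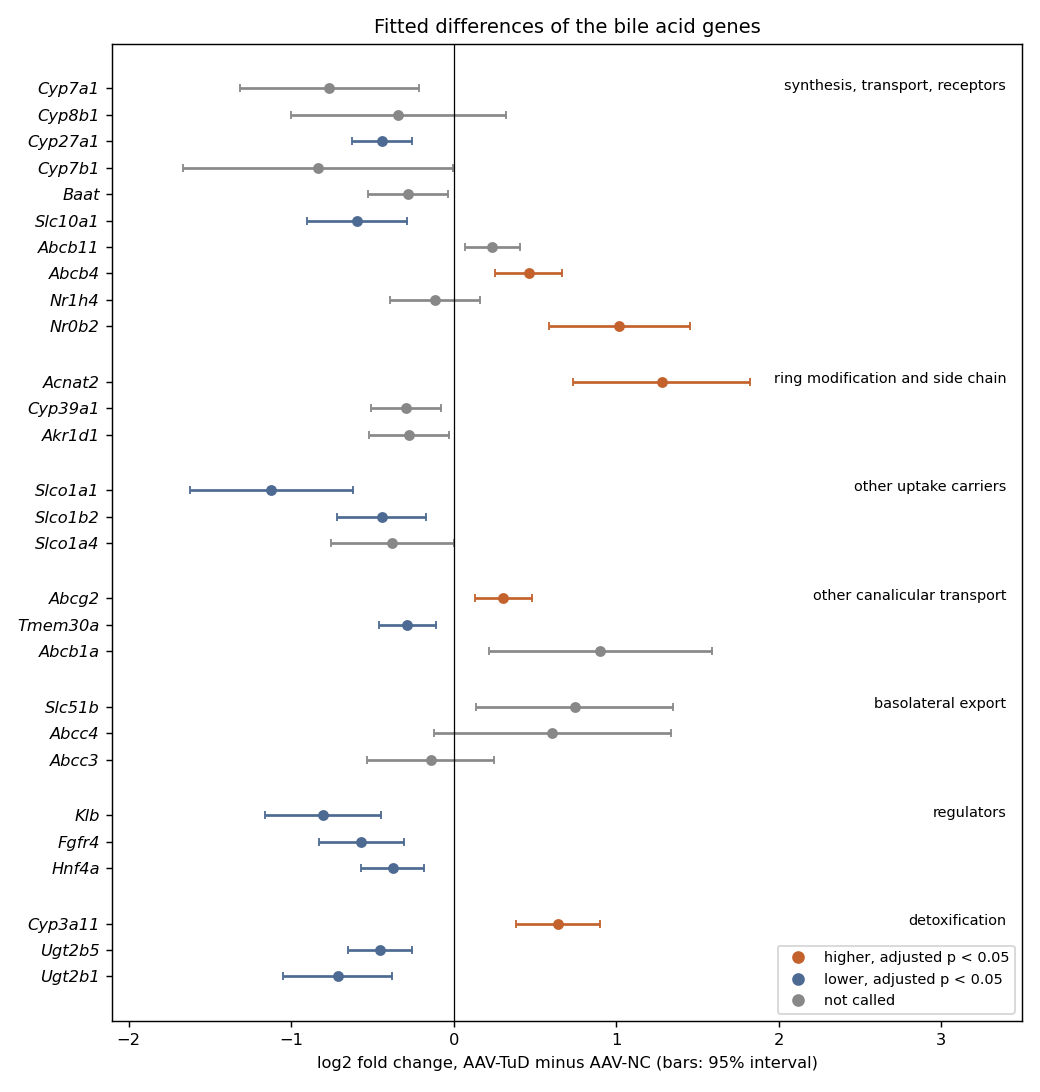
Fitted log2 fold change (x axis, AAV-TuD minus AAV-NC) with its 95% interval for the 10 genes and for the 3 genes with the smallest p value of each other list. Orange marks an adjusted p under 0.05 and higher, blue lower, and gray not past the threshold. *Nr0b2* and *Abcb4* lie to the right of 0 and *Cyp27a1* and *Slc10a1* to the left.

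Levels within a group were then compared between genes. For each gene the mean log2 CPM of its group was subtracted, and Pearson's r was taken over the 11 livers as a description. These livers share their scaling factors, and a liver's RNA sample contributes to both genes. *Baat* and *Cyp27a1* deviated together most closely (r = 0.83), followed by *Slc10a1* with *Nr1h4* (0.74) and *Baat* with *Nr1h4* (0.72). The 4 synthesis enzymes all had positive r with each other, from 0.42 to 0.62. *Abcb11* deviated against *Slc10a1* and *Nr1h4* (both r = -0.63), and *Nr0b2* went with *Cyp8b1* (0.69) and *Abcb4* (0.63) and not with *Cyp7a1* (0.02). Among 8371 other genes that averaged 50 reads or more, the closest to *Cyp7a1* were *Necab1*, *Iftap* and *6430590A07Rik* (r = 0.87, 0.87 and 0.86). The closest to *Cyp27a1*, the gene with the smallest p value, were *Cd59a*, *Scfd1* and *Ugt3a2* (0.93, 0.92 and 0.91).

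**Figure D3:**
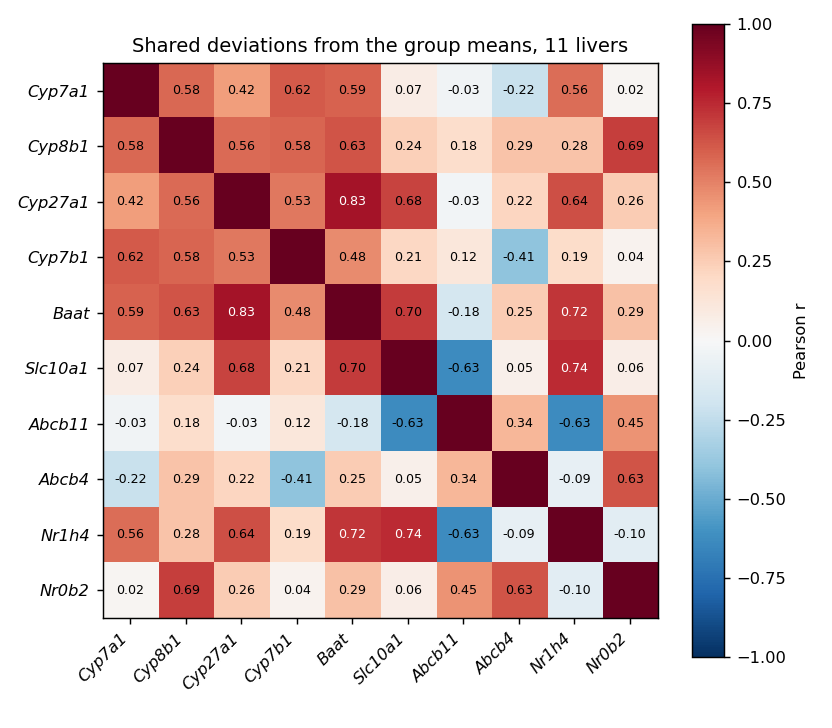
Pearson's r between the bile acid genes (rows and columns) for the deviations of log2 CPM from the group means over 11 livers, from -1 in blue to 1 in red. Synthesis enzymes, *Baat*, *Slc10a1* and *Nr1h4* form mostly positive pairs, up to 0.83, and *Abcb11* has its lowest value at -0.63.

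*Mup* expression in male liver depends on growth hormone, whose part here was not tested. The share of *Mup* reads varied with some of these genes within the groups. With the same deviations and the log2 share, r was 0.92 for *Cyp7b1*, 0.75 for *Cyp27a1*, 0.69 for *Baat*, 0.61 for *Cyp8b1*, 0.57 for *Cyp7a1* and 0.50 for *Slc10a1*. It was 0.39 for *Nr1h4*, 0.09 for *Nr0b2*, -0.04 for *Abcb11* and -0.19 for *Abcb4*. The same r was not taken over all genes, so these values cannot be called particular to bile acid genes. The share is also linked to the scaling, as AAV-NC liver 7, with the highest share, had the lowest TMM factor (0.667). The median share was 18.8% in AAV-NC and 13.4% in AAV-TuD livers. Without the 3 livers with the highest share (n = 8), r was lower for *Cyp7b1* (0.53), *Baat* (0.55), *Slc10a1* (0.47) and *Cyp7a1* (0.19). It was higher for *Cyp27a1* (0.86), *Cyp8b1* (0.72), *Nr1h4* (0.48) and *Abcb11* (0.20). For *Nr0b2* it was 0.55 and for *Abcb4* it turned to 0.53, so the values of these genes near or below 0 rest on the 3 livers. In these 8 livers, a choice made after seeing the data, *Cyp7a1* and *Cyp7b1* were both past the threshold, with log2 fold changes of -1.18 and -1.34 (edgeR adjusted p = 0.00781 and 0.0020). *Abcb11* was past it as well (0.30, edgeR adjusted p = 0.0367), and the 4 genes called in all livers were called again, so that 4 were lower and 3 higher. Over all 13334 genes, 574 were lower and 928 higher in these 8 livers. The dropped AAV-TuD livers 3 and 5 had the highest AAV-TuD levels of *Cyp7a1* (89.7 and 125 CPM) and *Cyp7b1* (113 and 124 CPM). The dropped AAV-NC liver 7 had the highest AAV-NC level of *Cyp7b1* (199 CPM). For *Abcb11* the dropped livers held the lowest AAV-TuD and the highest AAV-NC value. The added calls follow in part from this choice and are no further support. Among 12 male-biased liver genes 1 was higher and 3 lower with AAV-TuD, the lower ones being *Hsd3b5* (-1.71, edgeR adjusted p = 0.0112), *Slco1a1*, which is also among the uptake carriers, and *Mup3* (-0.81, edgeR adjusted p = 0.0332). The higher one, named after its values were seen, was *Mup20* (0.89, edgeR adjusted p = 0.0376). None of 4 tested female-biased genes was past the threshold, with 0.62 for *Cyp3a41a*, 0.59 for *Cyp3a44* and -0.11 for *Acot3*.

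**Figure D4:**
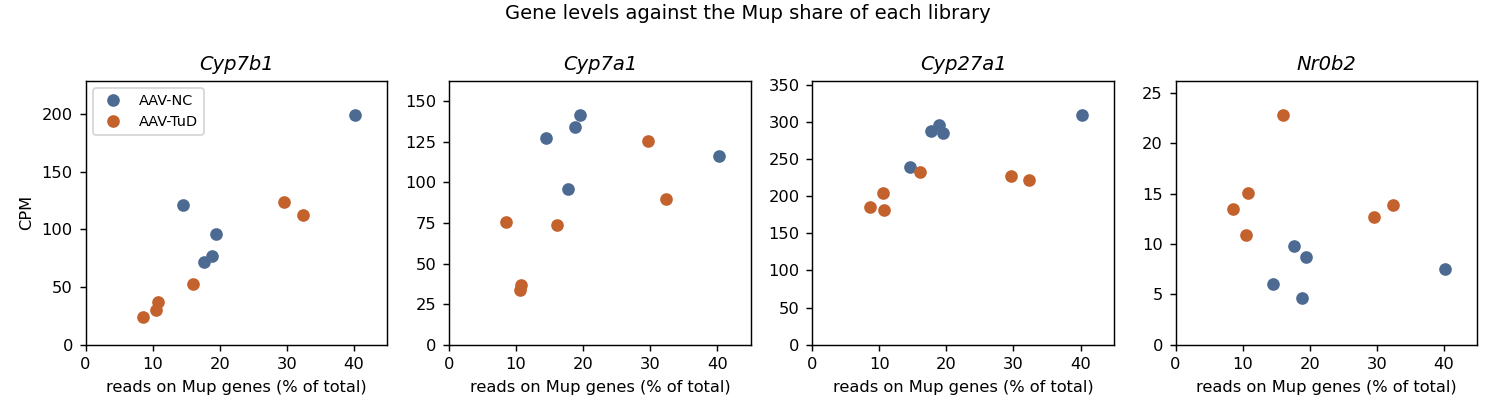
CPM of *Cyp7b1*, *Cyp7a1*, *Cyp27a1* and *Nr0b2* (y axes from 0) against the percentage of a library's reads on *Mup* genes (x axis), for AAV-NC (blue) and AAV-TuD (orange) livers. In each group *Cyp7b1* is highest in the livers with the highest share, and *Nr0b2* is higher in the AAV-TuD livers at low and at high shares.

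*Cyp7a1* is under control of the circadian clock in mouse liver. None of 3 tested genes of one clock list (the activator *Clock* and the repressors *Cry1* and *Nfil3*, log2 fold changes 0.06, -0.19 and -0.01) was past the threshold. Nor was any of 9 genes of a second list, which holds *Per* and *Nr1d* genes, *Cry2* and output genes such as *Hlf* and *Tef*. The smallest p value of the second list was that of *Hlf* (-0.31, edgeR adjusted p = 0.136), followed by *Ciart* (0.39) and *Cry2* (0.13). The summed level of this list was 159 to 229 CPM with AAV-NC and 151 to 265 with AAV-TuD. Cholesterol is the substrate of CYP7A1, and 4 of 14 genes of its synthesis and uptake were higher with AAV-TuD and none lower, with log2 fold changes of 0.61 for *Msmo1*, 0.74 for *Idi1* and 0.56 for *Sqle* (edgeR adjusted p = 0.0107, 0.0231 and 0.0269).

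Markers of other liver cells moved with the groups too. Of the tested cholangiocyte markers 4 of 6 were higher with AAV-TuD, and the sum of the list was 51.8 to 89.1 CPM in AAV-NC and 93.4 to 126 CPM in AAV-TuD livers. The stellate cell list had 6 of 7 higher (163 to 229 and 293 to 399 CPM), the Kupffer cell list 5 of 8 (91.1 to 138 and 103 to 289 CPM), and the neutrophil and monocyte list 2 of 3 (10.5 to 25.8 and 22.8 to 67.3 CPM). None of 8 endothelial markers was past the threshold (258 to 287 and 258 to 278 CPM). Of the 10 hepatocyte markers 2 were lower, *Hnf4a* and *Asgr1*, and none was higher. Their median log2 fold change was -0.11. The sum of this list (34489 to 40513 and 42989 to 49248 CPM) is mostly *Alb*, with means of 21096 and 28044 CPM (log2 fold change 0.41, edgeR adjusted p = 0.0805), and 7 of the 10 markers had negative fitted values. The most abundant markers were *Slc10a2*, *Sox9* and *Spp1* for cholangiocytes, *Dcn*, *Col3a1* and *Reln* for stellate cells, *C1qb*, *Cd5l* and *C1qa* for Kupffer cells, *Lyz2*, *Ccr2* and *S100a9* for neutrophils and monocytes, and *Ptprb*, *Kdr* and *Clec4g* for endothelial cells. Their part in the differences of the bile acid genes was not tested.

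**Figure D5:**
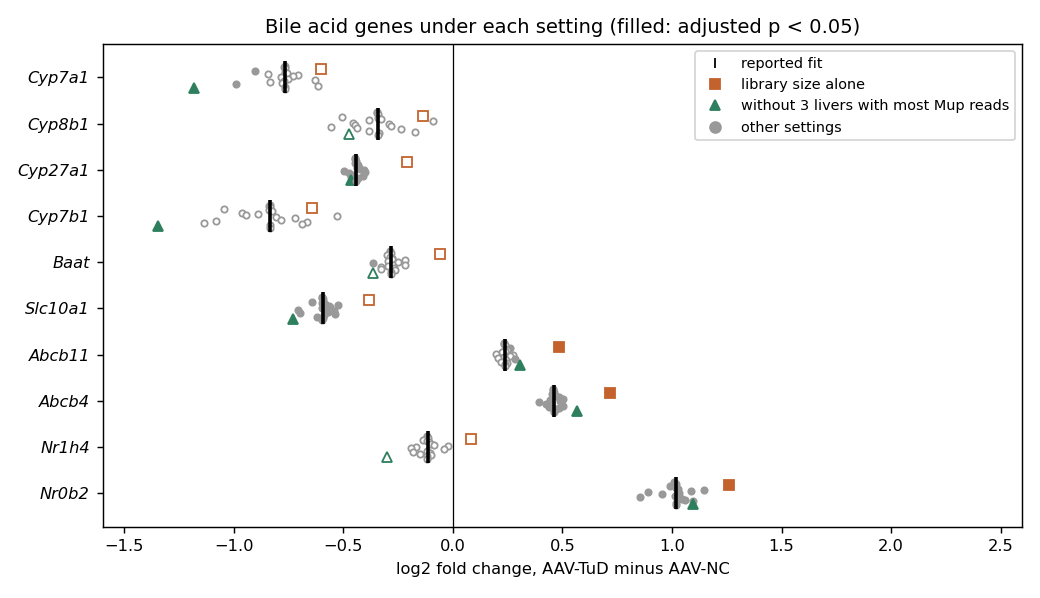
Log2 fold change (x axis) of each bile acid gene in the reported fit (black bar) and in each alternative, with library size alone as squares, the fit without the 3 livers with the highest *Mup* share as triangles and the others as circles. Filled symbols have an adjusted p under 0.05. *Nr0b2* and *Abcb4* stay to the right of 0 and filled in all settings, and *Cyp27a1* and *Slc10a1* are filled in all but library size alone.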

How the data were processed

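RNA of 11 mouse livers (5 AAV-NC, 6 AAV-TuD, grouped by the sample titles) was sequenced by the authors as QuantSeq 3′ libraries from 500 ng. Per the methods and the submitters' processing notes, reads were trimmed with BBDuk, aligned to GRCm38 with STAR 2.5.3a and counted with Rsubread, and the deposited values are counts of reads per gene. In the deposited counts each gene had at least 10 reads in at least 5 livers, whereas the methods state more than 10. Annotation, strand setting and multi-mapping are not given in the sources used here. The authors tested with DESeq2 1.38.3.

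Differences were tested in R 4.3.3 with edgeR 4.0.16 (quasi-likelihood, TMM, Benjamini-Hochberg over the 13334 genes that exceeded 10 reads in 5 livers or more, threshold 0.05). The standard error was the log2 fold change divided by the root of F. log2 CPM used a prior count of 2. DESeq2 1.42.0, limma 3.58.1, other scalings and filters, and fits without single livers were alternatives. The fit was tested on simulated data. Depth limits genes near 1 CPM, and none of the 10 genes was that low. P-values set the difference between the groups against the variation between these livers, with the variance of a gene moderated over all genes.

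The 10 genes and the lists were chosen with earlier results of these data known. Named beside them are, per list, the 3 genes with the smallest p value (markers: with most reads), and the 3 genes that deviate most like *Cyp7a1* and like the gene with the smallest p value. Positions are from GENCODE M21 (GRCm38), sequences from RefSeq tables of GRCm38.p6 and GENCODE transcripts.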

Additional observations from a re-analysis of the deposited data

Results flagged for a closer look

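Among 30 groups of values (each gene, ratio and the *Mup* share in each group), 2 had 1 liver far from the rest, measured as the gap to its nearest neighbour divided by the range of the group. Chance gives about 1.5 of 30. *Nr0b2* in AAV-TuD liver 11 was 22.7 CPM against 15.0 in the next liver (ratio 0.651), and without this liver the log2 fold change stayed positive and past the threshold. The *Mup* share of AAV-NC liver 7 was 40.2% against 19.5% in the next (ratio 0.806).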

How the results depend on the processing

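No paired analysis was possible because the labels name no pairs or blocks. The replicate numbers run on over both groups and say nothing about pairing. Each of the 10 fold changes was recomputed in 21 alternatives, and *Abcb4* (0.39 to 0.72) and *Nr0b2* (0.85 to 1.26) were past the threshold in all of them. Scaling by library size alone moves the all-gene median (log2 fold change) from -0.00 to 0.23. Under it 71 genes were lower instead of 577, and 1386 were higher instead of 966. Of the 10 bile acid genes 0 were lower instead of 2 (*Cyp27a1* -0.21, edgeR adjusted p = 0.406, *Slc10a1* -0.38, edgeR adjusted p = 0.143). *Nr1h4* turned from -0.12 to 0.081 (edgeR adjusted p = 0.810). Of the other bile acid genes 7 were higher instead of 4 and 2 lower instead of 8. *Klb*, *Fgfr4*, *Hnf4a*, *Ugt2b5*, *Slco1b2* and *Tmem30a* were then not past the threshold (edgeR adjusted p = 0.104, 0.307, 0.595, 0.395, 0.463 and 0.851). Of the genes called, 95.1% were then higher, against 62.6%. Without the 3 livers with the highest *Mup* share, a choice made after seeing the data, 4 of the 10 genes were lower instead of 2. Over all genes 574 were then lower instead of 577. The AAV-TuD livers left out in this way had the highest AAV-TuD levels of *Cyp7a1* and *Cyp7b1*.

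Leaving out single livers gave 1071 to 1867 genes in all against 1543, 711 to 1137 higher and 360 to 730 lower. The lowest count of lower genes, 360, was without AAV-TuD 4. Of the 10 genes it gave 2 to 3 higher and 2 to 3 lower, and of the other bile acid genes 2 to 5 higher (2 without AAV-NC 1 and without AAV-NC 6) and 6 to 8 lower. *Abcg2*, *Tmem30a*, *Slco1b2* and *Nr2f2* each lost their call without at least 5 of the 11 livers, 1 at a time.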
